A study of Mus musculus with 12 samples.

Results

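The 10 liver endothelial genes described here were *Stab1*, *Stab2*, *Clec4g*, *Lyve1*, *Oit3*, *Pecam1*, *Cdh5*, *Kdr*, *Ephb4* and *Efnb2*. They were chosen by gene name, as genes of the cells that line liver vessels, with *Ephb4* singled out, and with earlier results of these counts in view. All 10 were found by name in both count tables, among 20775 genes in the chow table and 22709 in the table for HFCF, a diet rich in fat, cholesterol and fructose. No cut on a measured value was recorded for the choice. Because results were known, the differences of *Ephb4* are given as a description without a p-value, nothing is read from counts of calls that include it, and the adjusted p-values of the other 9 genes are not independent evidence.

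RNA-seq was measured in bulk liver of 12 male C57BL/6N mice, 3 in each of 4 groups, with 1 library per mouse. Every mouse, controls included, carried floxed *Elavl1*, the gene of the RNA-binding protein HuR. Per the labels, mice of 4 to 6 months received a virus, AAV8, that carried Cre under the hepatocyte promoter Tbg (HuRHep-/-) or no Cre (WT). The study's methods instead describe a cross with Alb-Cre mice, in which Cre is driven by the albumin promoter, studied at a younger age. The tables do not show which description holds. Chow groups ate normal chow, and HFCF groups ate for 16 weeks a diet with 40 kcal% fat, 2% cholesterol and 20 kcal% fructose. Each diet has its own table, so diet cannot be told apart from anything else that differed between the tables. Age at collection on each diet and the duration of chow feeding are not given in the sources used here.

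The check of the targeted gene went against the labels. On chow, *Elavl1* had 938, 876 and 948 reads under the WT label and 1475, 1265 and 1261 under the HuRHep-/- label. In HFCF livers it had 904, 791 and 849 reads against 1299, 1242 and 1271. The gene was higher in the libraries labelled HuRHep-/- on both diets, by 0.41 on the log2 scale in chow (SE 0.068, adjusted p = 0.022, limma) and by 0.38 in HFCF (SE 0.072, adjusted p = 0.033, limma). Reads from the floxed exon were not separated from the rest of the gene in the counts. Each genotype direction below is thus a direction between libraries as labelled. For the same genotype, the study reports HuR depletion by qPCR in livers of its drug overdose experiment. It also reports repressed glutathione S-transferase genes in RNA-seq of untreated livers. Neither was checked here. The total of gene counts ran from 30071731 to 35949203 per library.

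Liver sinusoids are lined by specialised endothelial cells without a closed basement membrane, which take up waste molecules from the blood through scavenger receptors. Larger veins and arteries of the liver carry a more ordinary endothelium. In vessels at large, the receptor tyrosine kinase EphB4 is known as a mark of venous endothelium and its ligand ephrin-B2 as a mark of arterial endothelium, and the pair signals between cells in contact. None of this was measured here at the level of cells. In bulk liver, fewer cells of a type and less RNA per cell cannot be told apart.

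*Ephb4* lies on mouse chromosome 5, chr5:137350109-137378669 on the plus strand of GRCm38, with 4640 exon bases in 18 exons after transcripts were merged. Of its exon bases, 0.71% lie opposite *Zan*, on which 0 to 7 reads per library were counted. Opposite-strand overlaps touch 5.93% of the exon bases of *Clec4g*, 1.61% of *Stab2* and 1.09% of *Stab1*. *Kdr* lies at chr5:75932827-75978458, *Cdh5* at chr8:104101625-104144511 and *Pecam1* at chr11:106654217-106750628. No other gene shared words of 31 bases with any of the 10 transcripts (0.0% of words). RefSeq promoter windows, from 250 bases before to 50 after the start of the gene, matched 6 of the 10 genes. The windows of *Ephb4*, the gene with the largest genotype difference of the 10 on HFCF, of *Kdr*, which lies on the same chromosome and differed little, and of the scavenger receptor gene *Stab2* are shown on the strand of the gene, for GRCm38.p6. Capitals mark GGAAG, the core bound by ETS factors, or its reverse complement CTTCC.
Ephb4 promoter, chr5:137349859-137350158, plus strand: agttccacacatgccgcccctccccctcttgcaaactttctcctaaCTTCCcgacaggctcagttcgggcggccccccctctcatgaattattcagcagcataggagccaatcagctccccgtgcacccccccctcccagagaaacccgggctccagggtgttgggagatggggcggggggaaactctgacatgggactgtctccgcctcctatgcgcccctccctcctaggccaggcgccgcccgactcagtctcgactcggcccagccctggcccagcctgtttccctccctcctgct
Kdr promoter, chr5:75978406-75978705, minus strand: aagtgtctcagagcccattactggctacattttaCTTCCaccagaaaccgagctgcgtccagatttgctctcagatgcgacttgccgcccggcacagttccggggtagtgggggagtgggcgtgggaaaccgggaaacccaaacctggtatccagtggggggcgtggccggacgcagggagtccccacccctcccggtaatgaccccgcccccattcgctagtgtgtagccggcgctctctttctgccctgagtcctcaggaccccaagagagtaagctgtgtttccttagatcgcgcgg
Stab2 promoter, chr10:87007893-87008192, minus strand: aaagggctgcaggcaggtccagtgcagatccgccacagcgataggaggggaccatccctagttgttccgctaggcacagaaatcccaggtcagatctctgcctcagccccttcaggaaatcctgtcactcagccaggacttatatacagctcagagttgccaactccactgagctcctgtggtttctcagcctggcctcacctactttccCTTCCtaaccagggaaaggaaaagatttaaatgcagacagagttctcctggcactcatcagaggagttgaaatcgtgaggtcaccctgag
Each of the 3 windows held 1 such match, at -204 bases from the start in *Ephb4*, -216 in *Kdr* and -40 in *Stab2*. Searched on both strands, the motif was found in 71.4% of 32851 promoter windows, so a match sets none of these genes apart. GGGCGG, the core bound by Sp1-type factors, was found 4 times in the *Ephb4* window, 2 times in that of *Kdr* and 0 times in that of *Stab2*, against at least 1 match in 35.7% of windows. GATAA (25.4% of windows), CACGTG (7.15%) and TATAAA (13.6%) had no match in the 3 windows.

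Per exon base, the highest and the lowest of the 10 genes were the same in all groups. Levels per length are given as RPKM, the CPM of a gene (its share of the library's reads) per kilobase of exon. *Clec4g*, a C-type lectin of sinusoidal endothelium, was highest in each group, at 13.9 ± 2.22 (SD, n = 3) in chow WT, 12.5 ± 2.05 in chow HuRHep-/-, 12.1 ± 1.44 in HFCF WT and 11.7 ± 0.935 in HFCF HuRHep-/-. *Efnb2*, the gene of ephrin-B2, was lowest, at 0.196 ± 0.0374, 0.160 ± 0.0678, 0.209 ± 0.0517 and 0.268 ± 0.0469 in the same order of groups. It rested on 20 to 80 reads per library, whereas each of the other 9 genes had at least 117. *Ephb4* changed place with the group. It stood in place 3 in chow WT at 4.12 ± 0.379 RPKM, in place 2 in chow HuRHep-/- at 4.53 ± 0.213, in place 6 in HFCF WT at 2.62 ± 0.0290 and in place 2 in HFCF HuRHep-/- at 4.65 ± 0.147. In chow WT its livers overlapped with those of *Oit3* above it (4.55 ± 0.639) and not with those of *Stab1* below it (2.59 ± 0.103). In HFCF WT it overlapped with both neighbours, *Cdh5* (2.69 ± 0.388) and *Lyve1* (2.30 ± 0.671). From *Stab1* down to *Pecam1*, neighbours in chow WT all overlapped.

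**Figure D1:**
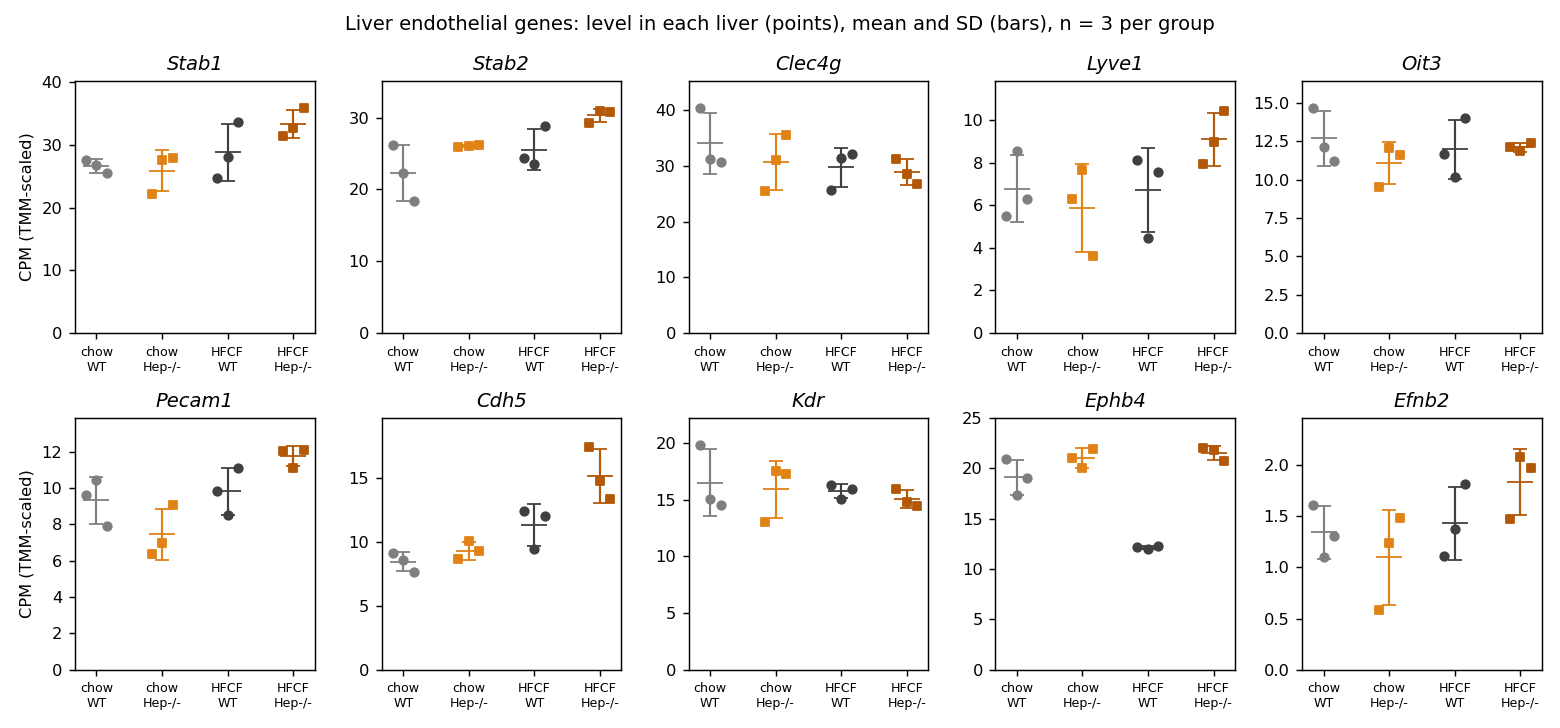
Level of each of the 10 genes in each liver, as TMM-scaled CPM, with points for livers and bars for the mean and SD of 3 livers. The livers labelled HuRHep-/- are drawn as squares, and the 3 HFCF WT livers lie near 12 CPM for Ephb4 while all other livers lie between 17.4 and 22.1.

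The comparison of livers labelled HuRHep-/- with WT asks what differs between the labels, separately on each diet. CPM below are scaled by TMM, which corrects library totals for differences in composition. A gene was called when its adjusted p was at most 0.05, its fold change at least 1.5 and its counts at least 10 over each group.

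On chow, *Ephb4* had groups that overlapped between the labels. It had 20.9, 17.4 and 19.1 CPM in WT livers and 21.1, 20.0 and 21.97 in HuRHep-/- livers. The log2 difference was 0.15 (SE 0.0873, 95% interval -0.06 to 0.35). Of the 10 genes, all passed the filter on low counts and 0 were called, against 2.23% of 13526 genes tested with limma. Without the fold criterion the count was also 0, against 4.18%, and 0 of the 10 reached an unadjusted p of 0.05 (3184 of all genes did) or were called with voom weights. No gene of the 10 had groups without overlap, against 29.3% of all genes. Their median log2 difference was -0.09, beside 0.00 over all genes, with 3 positive and 7 negative values. Over all genes 51.0% of values were positive. The intervals were wide for the lower genes. For *Pecam1*, the platelet and endothelial junction protein CD31, the interval ran from -0.70 to 0.05 around -0.32.

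The other chow values show livers of both labels in the same range. *Stab1* had 27.6, 26.7 and 25.5 CPM in chow WT and 22.2, 27.6 and 28.0 in chow HuRHep-/- livers. *Stab2* had 26.1, 22.3 and 18.4 CPM against 26.0, 26.0 and 26.2, with WT livers spread and HuRHep-/- livers close together (log2 difference 0.25, SE 0.122, adjusted p = 0.264, limma). Without WT replicate 3 the difference was 0.11. *Clec4g* had 40.4, 31.3 and 30.6 CPM against 25.5, 31.1 and 35.6. In that gene WT replicate 1 was the highest liver and HuRHep-/- replicate 1 the lowest. The same pair of livers held the highest and lowest values of *Oit3*, with 14.7, 12.1 and 11.2 CPM against 9.51, 12.1 and 11.6, and of *Kdr*, with 19.9, 15.1 and 14.5 CPM against 13.04, 17.5 and 17.3. *Lyve1* had 5.50, 8.56 and 6.31 CPM in chow WT, and *Efnb2* had 1.61, 1.104 and 1.31.

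On HFCF, *Ephb4* was higher in the livers labelled HuRHep-/-. It had 12.2, 12 and 12.3 CPM in the WT livers, from 461, 393 and 386 reads. It had 22.1, 21.9 and 20.8 CPM in the HuRHep-/- livers, from 885, 843 and 772 reads. Every HuRHep-/- liver was above every WT liver, and the spread within each group was small. The log2 difference was 0.81 (SE 0.0684, 95% interval 0.65 to 0.97), or 1.76-fold. *Ephb4* was the only gene of the 10 called on HFCF, against 3.62% of 14295 genes tested. Without the fold criterion it was again the only one, against 6.79%. Since *Ephb4* was singled out with these values in view, nothing is read from that count.

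Of the scavenger and lectin genes, *Stab2*, the main hyaluronan scavenger receptor of the sinusoid, was nearest to a difference. It had 24.3, 23.5 and 28.8 CPM in HFCF WT livers and 29.3, 30.9 and 30.8 in HFCF HuRHep-/- livers. The groups did not overlap, but the log2 difference of 0.24 (SE 0.0881) did not pass (adjusted p = 0.128, limma). Without WT replicate 3 the adjusted p was 0.0461 in the limma fit, with a fold change still under the criterion. *Stab1*, a related scavenger receptor also found on macrophages, had 24.7, 28.0 and 33.7 CPM against 31.5, 32.7 and 35.8. Its groups overlapped, and the log2 difference was 0.20 (SE 0.117, adjusted p = 0.281, limma). *Lyve1*, a hyaluronan receptor of sinusoidal and lymphatic endothelium, had 8.13, 4.49 and 7.56 CPM against 7.93, 8.97 and 10.4. WT replicate 2 was the low liver, and the groups overlapped (log2 difference 0.46, SE 0.233, adjusted p = 0.232, limma). Without that liver the difference was 0.19. *Clec4g* had 25.7, 31.4 and 32.1 CPM against 31.3, 28.6 and 26.7, with no order between the groups (log2 difference -0.05, 95% interval -0.30 to 0.19). *Oit3*, a secreted protein with a zona pellucida domain, had 11.7, 10.2 and 14.04 CPM against 12.1, 11.8 and 12.4. The log2 difference was 0.02, with a 95% interval from -0.27 to 0.30.

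Both junction genes lay higher in every HFCF HuRHep-/- liver without passing the test. *Cdh5*, the gene of VE-cadherin, which holds endothelial cells together, had 12.4, 9.43 and 12.04 CPM in WT livers and 17.4, 14.7 and 13.3 in HuRHep-/- livers. Its log2 difference was 0.41 (SE 0.144, adjusted p = 0.119, limma). *Pecam1* had 9.84, 8.52 and 11.1 CPM against 12.04, 11.1 and 12.1. The highest WT and the lowest HuRHep-/- liver were nearly level. Its log2 difference was 0.25 (SE 0.113, adjusted p = 0.192, limma). In all, 4 of the 10 genes had groups without overlap on HFCF, against 36.2% of all genes tested, so that share is near the background.

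*Kdr*, which encodes the main signalling receptor for VEGF-A, showed no such difference. It had 16.3, 15.05 and 15.98 CPM in HFCF WT livers and 15.9, 14.8 and 14.5 in HFCF HuRHep-/- livers. The groups overlapped, and the log2 difference was -0.08 with a 95% interval from -0.27 to 0.10. *Efnb2*, the ligand of EphB4, had 1.11, 1.37 and 1.81 CPM against 1.47, 2.07 and 1.97. Its log2 difference was 0.35 with a wide interval, -0.22 to 0.92, and its 42 to 80 reads per liver limit what could be seen. Over the 10 genes the median log2 difference on HFCF was 0.24, beside 0.00 over all genes, with 8 positive and 2 negative values. Of the 9 genes other than *Ephb4*, 7 were positive, against 49.7% of all genes.

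**Figure D2:**
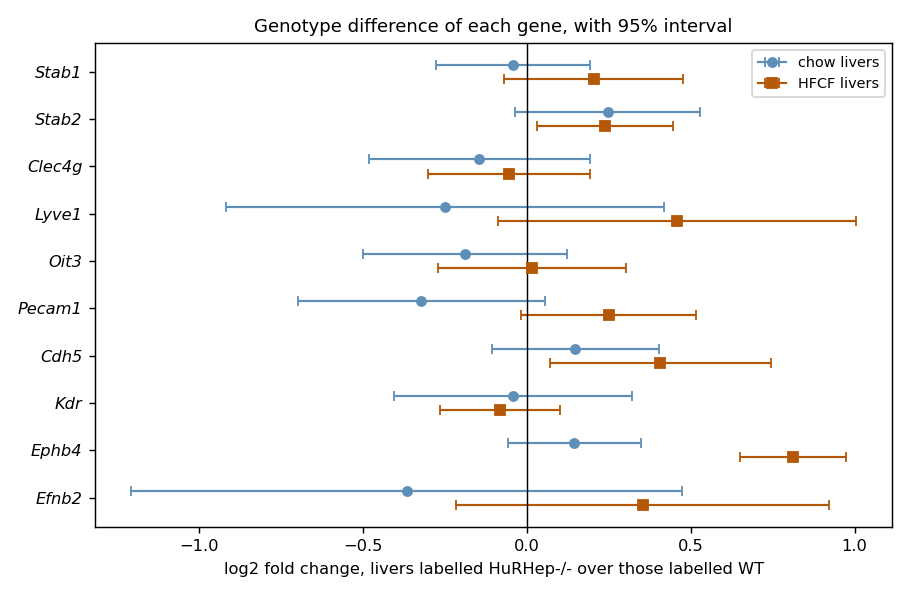
Log2 fold change of each gene between livers labelled HuRHep-/- and WT, on chow (circles) and on HFCF (squares), with 95% intervals from 3 against 3 livers. Ephb4 on HFCF lies at 0.81, and the 9 other genes lie between -0.08 and 0.46 on HFCF.

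The comparison of diets within each label asks how the same genes differ between the HFCF and chow tables. In livers labelled WT, *Ephb4* was lower on HFCF in every liver, at 12 to 12.3 CPM against 17.4 to 20.9 on chow. The log2 difference was -0.65 (SE 0.0757, 95% interval -0.82 to -0.49), or 0.637-fold. In livers labelled HuRHep-/- it was at 20.8 to 22.1 CPM on HFCF and 20.0 to 21.97 on chow. Those groups overlapped, with a log2 difference of 0.04 (SE 0.0757, 95% interval -0.13 to 0.20). In CPM, the HFCF WT livers lay apart from the other 3 groups, whose livers overlapped.

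*Cdh5* was higher on HFCF under both labels. Its livers had 9.12, 8.59 and 7.62 CPM in chow WT and 8.61, 10.03 and 9.26 in chow HuRHep-/-, below all 6 HFCF livers except HFCF WT replicate 2 at 9.43, which lay under chow HuRHep-/- replicate 2. In WT livers the log2 difference was 0.41 (SE 0.131, adjusted p = 0.039, limma), short of the fold criterion. That adjusted p was 0.0514 without a filter on low counts, 0.0582 with voom weights and up to 0.135 in limma fits that left out a library. In HuRHep-/- livers *Cdh5* rose by 0.70 on the log2 scale (SE 0.131, adjusted p = 0.00212, limma), and was called in all fits that left out a library. *Pecam1* had 9.61, 10.4 and 7.91 CPM in chow WT and 6.35, 6.97 and 9.05 in chow HuRHep-/-. In HuRHep-/- livers it rose on HFCF by 0.67 on the log2 scale (SE 0.148, adjusted p = 0.00486, limma), and in WT livers the log2 difference was 0.08 (SE 0.148). Without chow HuRHep-/- replicate 1 the *Pecam1* difference fell under the fold criterion, at 0.56.

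*Stab1* in HuRHep-/- livers went from 22.2, 27.6 and 28.0 CPM on chow to 31.5 to 35.8 on HFCF. It passed without the fold criterion (log2 difference 0.37, SE 0.117, adjusted p = 0.0268, limma). Without chow HuRHep-/- replicate 1 it did not (adjusted p = 0.105 in limma), nor without HFCF HuRHep-/- replicate 2 (0.0562) or 3 (0.09). *Lyve1* had 6.29, 7.68 and 3.60 CPM in chow HuRHep-/- livers, all below the 7.93 to 10.4 of HFCF HuRHep-/- livers, with a log2 difference of 0.70 that did not pass (SE 0.288, adjusted p = 0.0755, limma). It passed with the replicate block (adjusted p = 0.0405, limma), without HFCF WT replicate 2 (0.0467) and without chow HuRHep-/- replicate 2 (log2 difference 0.92, adjusted p = 0.0376, limma). Without chow HuRHep-/- replicate 3, its low liver, the difference was 0.38. *Efnb2* had 0.580, 1.24 and 1.48 CPM in chow HuRHep-/- livers, and the log2 difference of 0.82 (SE 0.328) did not pass (adjusted p = 0.0667, limma). Chow HuRHep-/- replicate 1, with 20 reads, was the low liver, and without it the difference was 0.42 and the adjusted p 0.247 in the limma fit. Without chow HuRHep-/- replicate 3 the difference was 1.08 and passed (adjusted p = 0.0353, limma), as it did with upper-quartile factors (adjusted p = 0.048, limma). *Kdr* differed by -0.05 in WT and -0.07 in HuRHep-/- livers (SE 0.133 each).

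By diet in WT livers, 1 of the 10 genes was called, *Ephb4*, against 9.38% of 14535 genes, and 2 passed without the fold criterion, against 24.2%. In HuRHep-/- livers, 2 were called, *Cdh5* and *Pecam1*, against 19.1%, and 3 passed without the fold criterion, against 38.9%. Groups did not overlap for 2 of the 10 genes in WT (37.6% of all genes) and 5 in HuRHep-/- livers (54.6%). These shares are near or below the background of each comparison, and nothing is read from the part of *Ephb4* in them. The median log2 difference by diet was 0.02 in WT and 0.30 in HuRHep-/- livers. These comparisons use the same livers as the genotype comparisons.

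**Figure D3:**
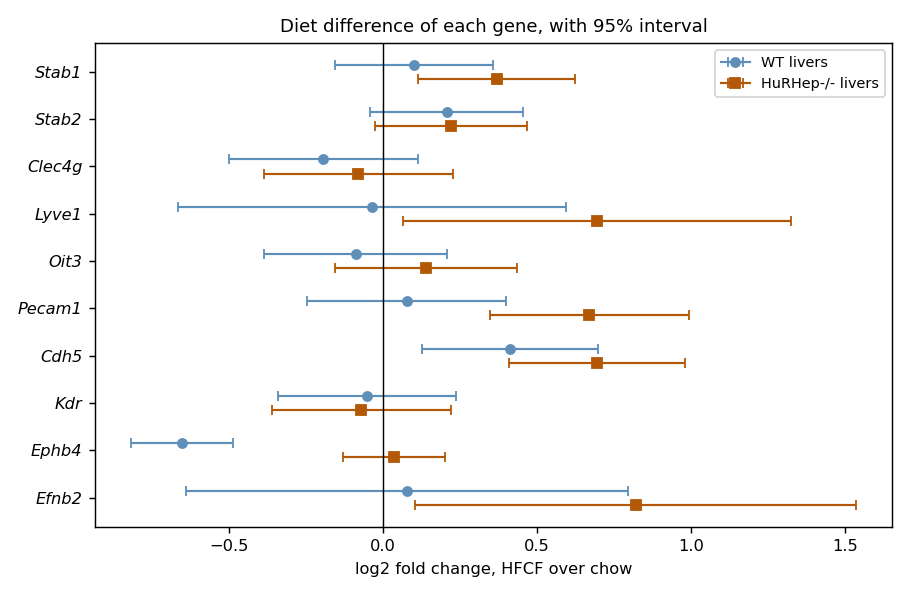
Log2 fold change of each gene between HFCF and chow livers, for livers labelled WT (circles) and HuRHep-/- (squares), with 95% intervals from a fit on 12 libraries. Ephb4 is the lowest value in WT livers at -0.65 and lies at 0.04 in HuRHep-/- livers, while Cdh5 is above 0 under both labels.

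Whether the genotype difference itself changed between diets was fitted as an interaction over the 12 libraries. For *Ephb4*, the HFCF difference exceeded the chow difference by 0.69 on the log2 scale (SE 0.107, 95% interval 0.45 to 0.92). For *Pecam1* the value was 0.59 (SE 0.209, adjusted p = 0.252, limma), which did not pass. For *Kdr* it was -0.02 (SE 0.188) and for *Stab2* 0.01 (SE 0.160). Values of 9 of the 10 genes were positive, with a median of 0.28, beside 50.7% of all genes positive and a median of 0.00. Of the 9 genes other than *Ephb4*, 8 were positive, and nothing is read from these signs. In this comparison limma called 0 of the 10 genes and 0 of all 14535 (0.0%), with or without the fold criterion. At an unadjusted p under 0.05 there were 2088 genes, 2 of them among the 10, and voom weights called 0 genes by the full rule.

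The ratio of *Ephb4* to each of the other 9 genes, per exon base and within the same liver, does not depend on library scaling. To *Kdr* it was 1.45, 1.55 and 1.49 in HFCF WT livers and 2.69, 2.87 and 2.80 in HFCF HuRHep-/- livers. On chow it was 2.28 ± 0.260 in WT and 2.61 ± 0.477 in HuRHep-/- livers (SD, n = 3). To *Cdh5* the ratio was 2.06 ± 0.219 and 2.06 ± 0.220 on chow, and 0.987 ± 0.144 and 1.30 ± 0.138 on HFCF. *Ephb4* was thus lower beside *Cdh5* on HFCF under both labels, whereas beside *Kdr* it was lower in HFCF WT livers alone. To its ligand *Efnb2* the ratio was 21.3 ± 2.08 and 33.2 ± 17.8 on chow, and 13.0 ± 3.11 and 17.8 ± 3.79 on HFCF. In HuRHep-/- livers the ratio to *Pecam1* was 3.86 ± 0.598 on chow and 2.47 ± 0.165 on HFCF, and that to *Stab2* 1.52 ± 0.0674 and 1.34 ± 0.0743. Between the HFCF labels 6 of the 9 ratios had groups without overlap, and those to *Cdh5*, *Lyve1* and *Efnb2* overlapped. The 9 ratios share the *Ephb4* counts and are not separate observations.

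**Figure D4:**
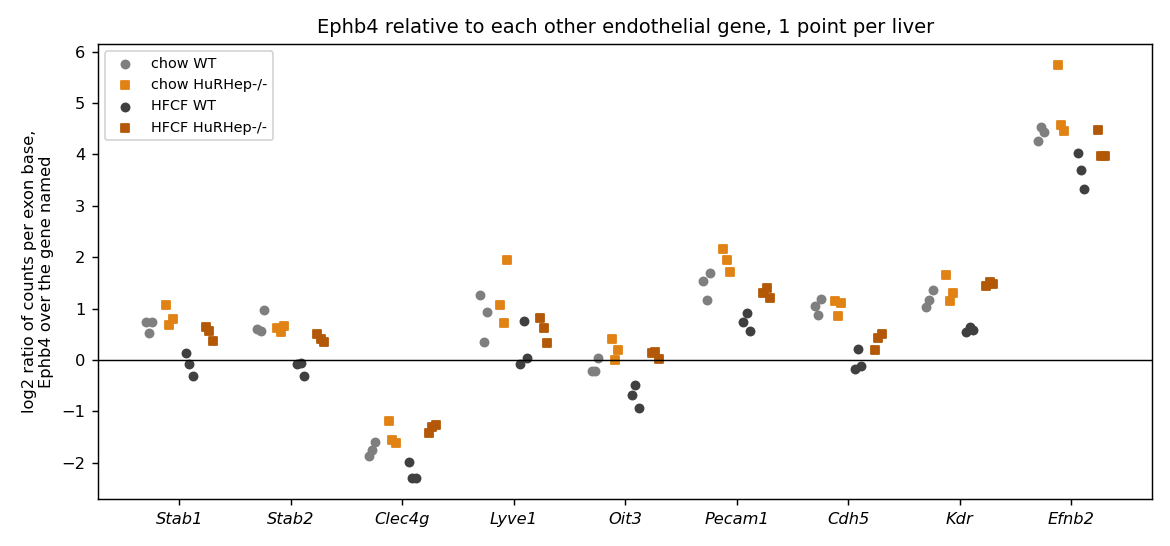
Log2 ratio of Ephb4 to each of the 9 other genes, in reads per exon base, with 1 point per liver and 4 groups. The HFCF WT livers lie lowest beside Kdr, between 0.54 and 0.63, against 1.43 to 1.52 in HFCF HuRHep-/- livers.

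Of the genes listed within 50000 bases of *Ephb4* on its chromosome, *Srrt* differed by -0.05 (SE 0.0765), *Trip6* by 0.23 (SE 0.108) and *Slc12a9* by -0.30 (SE 0.121) on the log2 scale between the HFCF groups. *Trip6* was higher in HuRHep-/- livers without overlap on both diets (0.19 on chow, SE 0.0878), beside 29.3% of all genes without overlap on chow and 36.2% on HFCF in either direction. None of these 3 genes was called in any of the 5 comparisons in the limma fits, and with 2.23% to 19.1% of all genes called by genotype or diet, and 0 for the interaction, nothing is read from that count. Over 12 libraries with the mean of each diet subtracted, genes whose log2 CPM followed *Ephb4* closely, among 10184 genes, included *Urm1* (Pearson's r = 0.97), *Tbc1d31* (0.94), *Slc39a4* (0.94) and *Ptgr1* (0.94). The 12 points share groups and tables, and the values are a description. Of these genes, *Slc39a4*, a zinc importer, had log2 differences of 0.97 by genotype on HFCF (SE 0.0924), 0.09 on chow (SE 0.0903) and -0.50 by diet in WT livers (SE 0.0981). By diet in WT livers *Urm1* differed by 0.13 (SE 0.066), *Tbc1d31* by 1.44 (SE 0.145) and *Ptgr1* by -0.32 (SE 0.125). Among the other endothelial genes, *Cdh5* was nearest at r = 0.76 (rank 273) and *Kdr* farthest at -0.07 (rank 5076). Between them lay *Stab2* (0.63), *Stab1* (0.48), *Pecam1* (0.34), *Lyve1* (0.26), *Oit3* (0.06) and *Clec4g* (-0.02). *Efnb2* was not ranked, since its mean count was under the minimum of 100.

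Other endothelial and pathway genes were listed by name, 15 lists with 174 genes, also with earlier results known. Counts of called genes in these lists stand beside 2.23% of all genes on chow and 3.62% on HFCF by genotype, and 9.38% in WT and 19.1% in HuRHep-/- livers by diet, in either direction. Called higher were 2.15% on HFCF by genotype, and 6.14% in WT and 14.2% in HuRHep-/- livers by diet, and counts of genes that rose are set beside these. Among other genes of sinusoidal endothelium, 1 of 16 was called between the HFCF groups. It was *Flt4*, the receptor for VEGF-C, with 11.8, 10.3 and 13.3 CPM in WT and 21.1, 19.1 and 19.5 in HuRHep-/- livers (log2 difference 0.75, SE 0.108, adjusted p = 0.0189, limma). By diet 1 of the 16 rose in WT livers, *Clec1b*, and 2 in HuRHep-/- livers, *Flt4* (log2 1.11, adjusted p = 0.000399, limma) and *Gata4*, beside 6.14% and 14.2% of all genes. Of 28 pan-endothelial genes, 0 were called between the HFCF groups (0 also on chow), with a median log2 difference of 0.18. By diet, 1 of the 28 rose in WT livers, the transcription factor gene *Lmo2* (6.14% of all genes rose), and 11 in HuRHep-/- livers (14.2%), with *Fli1*, *Lmo2*, *Nos3* and *Sox18* largest (log2 0.96, 0.93, 0.90 and 0.88). These medians by diet were 0.22 and 0.45, beside 0.01 and 0.00 over all genes.

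The list named capillarisation, for the basement membrane and markers that sinusoids gain when they come to resemble capillaries, held 7 tested genes. By diet 2 rose in WT livers, *Plvap* and *Col4a1* (6.14% of all genes rose), and 7 of 7 in HuRHep-/- livers (14.2%), with medians of 0.43 and 1.06. The groups of *Col4a1* overlapped in WT livers, with HFCF WT replicate 2 at 13.5 CPM and chow WT replicate 2 at 15.7. Summed over the list, HFCF WT livers had 103.6, 69.05 and 130.5 CPM, and chow WT livers 54.05 to 69.76. *Nid1*, a basement membrane protein, rose by 1.62 on the log2 scale by diet in HuRHep-/- livers (SE 0.280, adjusted p = 0.00139, limma). Collagen IV and nidogen are also made by stellate cells, of whose 10 markers 4 rose by diet in WT and 10 in HuRHep-/- livers. Between the HFCF groups all 7 differences were positive, with a median of 0.88 against -0.0017 over all genes, and 1 was called higher, against 2.15%. On chow 4 were positive and 3 negative, with a median of 0.09. *Cd34*, a surface protein of vascular and other cells, was called between the HFCF groups, at 1.95, 1.496 and 1.65 CPM in WT and 3.32, 3.24 and 4.82 in HuRHep-/- livers (adjusted p = 0.0314, limma).

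Of the other Eph receptors and ephrins, 12 were tested on HFCF and 2 were called higher in HuRHep-/- livers, against 2.15% of all genes. *Ephb2* had 4.51, 2.44 and 3.97 CPM in HFCF WT and 7.38, 10.96 and 9.53 in HFCF HuRHep-/- livers (adjusted p = 0.0323, limma). On chow it had 0.155 ± 0.0848 and 0.240 ± 0.0701 CPM (SD, n = 3), so that it was higher on HFCF under both labels, where *Ephb4* was not. *Ephb6* had 0.578 ± 0.199 CPM in HFCF WT and 1.80 ± 0.339 in HFCF HuRHep-/- livers (adjusted p = 0.036, limma). By diet, *Ephb2*, *Epha2* and *Efna5* rose in WT livers, and *Ephb2*, *Epha2* and *Ephb3* rose and *Efna3* fell in HuRHep-/- livers. Reads were few, with 9 to 41 per library for *Ephb3* and 5 to 27 for *Efna3*. None of the 10 tested on chow was called between the labels.

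In the VEGF list, *Flt4* was the only 1 of 8 called between the HFCF groups, and *Vegfd* was lower on HFCF under both labels (log2 -0.86 and -0.94). *Vegfa* on chow was lower in HuRHep-/- livers by adjusted p alone (log2 -0.33, SE 0.0636, adjusted p = 0.0352, limma). Of 5 angiopoietin and Tie genes, 1 rose by diet in HuRHep-/- livers, *Angpt2* (log2 1.02), and 0 in WT livers. Of 12 Notch genes, *Notch1* alone rose in WT livers, near the background of 6.14%, and 5 rose in HuRHep-/- livers (14.2% of all genes), with *Nrarp*, a Notch target, at 2.10 and *Heyl* at 1.19. Of 16 genes of BMP and ALK1 signalling, *Smad9*, a receptor-regulated Smad, fell between the HFCF labels by 0.99 on the log2 scale (SE 0.202, adjusted p = 0.0379, limma) and fell by diet under both labels (-1.15 and -2.08). By diet in HuRHep-/- livers 4 of the 16 rose, among them *Acvrl1*, *Id1* and *Gdf2*, beside 14.2% of all genes. Of 4 hyaluronan genes tested, *Cd44* alone was called, higher on HFCF in HuRHep-/- livers (log2 1.08).

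**Figure D5:**
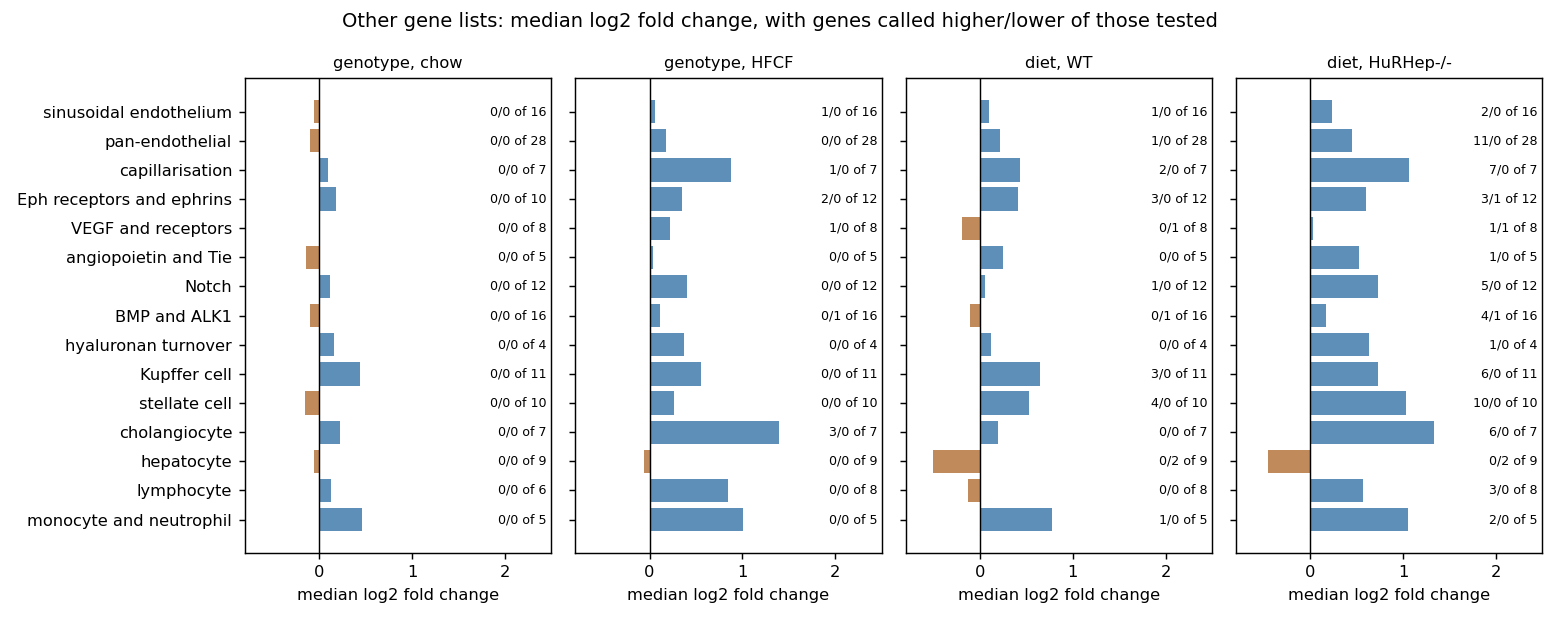
Median log2 fold change of each of the 15 other gene lists in the 2 genotype and 2 diet comparisons, with the number of genes called higher, then lower, of those tested written at the right. In HuRHep-/- livers by diet, 11 of 28 pan-endothelial and 10 of 10 stellate cell genes were called higher.

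Markers of other liver cells are given for the same comparisons, with called genes in some of them and none in others. Summed over the 10 endothelial genes, CPM ran from 142.5 to 175.5 in chow WT, 139.1 to 163.9 in chow HuRHep-/-, 144.0 to 169.4 in HFCF WT and 177.6 to 181.0 in HFCF HuRHep-/- livers. The 8 cholangiocyte markers summed to 55.6 to 104.0 CPM in HFCF WT and 150.9 to 263.3 in HFCF HuRHep-/- livers, and 3 of 7 tested were called higher, *Krt19*, *Muc1* and *Krt7*, against 2.15% of all genes. Most of that sum was *Spp1*, a secreted phosphoprotein also made by other cells, at 30.7 to 77.7 and 115.3 to 214.9 CPM, which was not among the called. By diet 0 of the 7 rose in WT and 6 in HuRHep-/- livers, with *Krt7* at 1.99 on the log2 scale. Kupffer cell markers summed to 222.9 to 289.5 CPM in chow WT, 293.1 to 438.9 in chow HuRHep-/-, 318.5 to 535.5 in HFCF WT and 495.2 to 753.2 in HFCF HuRHep-/- livers. By genotype 0 of 11 were called on either diet. All 11 differences were positive on both diets, with medians of 0.43 on chow and 0.56 on HFCF, beside 0.00 over all genes. By diet 3 of the 11 rose in WT livers, *Cd5l*, *C1qb* and *Vsig4*, beside 6.14% of all genes. The groups of *C1qb* overlapped there, with HFCF WT replicate 2 at 35.5 CPM and chow WT replicate 2 at 36.4. In HuRHep-/- livers 6 rose, beside 14.2%, among them *C1qb*, *Cd5l*, *C1qc* and *C1qa* (log2 0.91 to 1.08), in the comparison that called *Cdh5* and *Pecam1*. Of the 11 differences by diet, 9 were positive and 2 negative under each label. The 10 stellate cell markers summed to 260.1 to 289.9 CPM in chow WT, 207.3 to 289.1 in chow HuRHep-/-, 303.0 to 486.9 in HFCF WT and 443.9 to 479.6 in HFCF HuRHep-/- livers. By diet 4 of the 10 rose in WT livers (6.14% of all genes rose) and 10 of 10 in HuRHep-/- livers (14.2%). The 9 hepatocyte markers summed to 92960 to 114200 CPM in chow WT, 78810 to 84690 in chow HuRHep-/-, 66450 to 72330 in HFCF WT and 61590 to 65590 in HFCF HuRHep-/- livers. Most of that sum was *Alb*, the serum albumin gene, with means of 74060 and 52650 CPM in the chow groups, and its difference on chow did not pass (log2 -0.48, adjusted p = 0.361, limma). Of the 9 markers, 2 were called lower by diet under each label, *Fgb* and *Cps1*, beside 9.38% and 19.1% of all genes called in either direction. All 9 differences by diet were negative under both labels, with medians of -0.51 in WT and -0.46 in HuRHep-/- livers. Without the fold criterion 6 and 7 passed, against 24.2% and 38.9% of all genes in either direction. Markers of lymphocytes were low, with 3.33 to 7.85 CPM summed over 9 genes in any HFCF liver, and 3 of 8 tested rose by diet in HuRHep-/- livers, against 14.2% of all genes. Those of monocytes and neutrophils summed to 3.48 to 11.4 CPM in HFCF livers, and by diet 1 of 5 rose in WT livers, *Ccr2* (log2 1.68), and 2 in HuRHep-/- livers, *Ccr2* (2.13) and *Csf3r* (1.06). All 10 endothelial genes had reads in every library, and of the markers of other cells only *Cftr* and *Ncr1* had 0 reads in at least 1 library. The part of these cell markers in the differences of the 10 genes was not tested.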

How the data were processed

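Bulk RNA-seq was measured in 12 mouse livers. The authors aligned the reads to GRCm38.p6 in CLC Genomics Workbench (local read and reverse strand alignment, a stranded kit) and deposited counts per gene, not normalized, in 1 table per diet. The deposited counts are whole numbers, the larger of which are text with a comma, so they were treated as another unit and tested on a log scale and not with a count model. Ensembl identifiers matched a symbol for 20703 of 20775 and 22617 of 22709 genes, and 23 and 27 names turned into dates were restored through them. All libraries differed in their counts.

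Log2 CPM were computed with a pseudocount of 0.5 and TMM factors written anew (trims 0.3 and 0.05). The filter on low counts kept genes with 15 counts or more in total and, in 3 libraries or more, a CPM that equals 10 counts at median depth. Fits used limma 3.58.1 in R 4.3.3 with a variance trend and Benjamini-Hochberg adjustment over all genes tested, on 6 libraries for genotype and 12 for diet and interaction. Tests were two-sided. The fits were tested on simulated data. Exon lengths came from GENCODE, and promoters from RefSeq on GRCm38.p6. RPKM are counts per exon length computed here.

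Totals of 30071731 to 35949203 counts per library set the depth, and counts of single genes carry counting error beside the spread between mice. Alternatives were RLE and upper-quartile factors, a pseudocount of 2, other filters, voom weights, a replicate block, 1 fit for all libraries, no fold criterion and leaving out each library.

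The members and lists were chosen with earlier results of these data known. The 10 genes are named throughout. Of each list the called genes are named, at most 4 with the largest change, or else those with the highest mean, and not all are printed. For likeness to *Ephb4*, the rule took the 5 genes with the highest correlation, of which 1 is not reported here. Symbols not listed in both tables were *Epha6*, *Epha8*, *Epha10*, *Has2*, *Cemip2*, *Itgam* and *Tf*.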

Additional observations from a re-analysis of the deposited data

How the results depend on the processing

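The number of the 10 genes called by genotype was 0 on chow and 1 on HFCF under every alternative run. By diet in WT livers it was 1, or 2 without the fold criterion, and 1 in each fit that left out a library. By diet in HuRHep-/- livers it was 2, 3 with upper-quartile factors, the replicate block or no fold criterion, and 1 to 3 with a library left out, 1 being without chow HuRHep-/- replicate 1. For the interaction it was 0, and 0 to 1 with a library left out, 1 being *Ephb4* without HFCF WT replicate 3. Nothing is read from calls of *Ephb4*. Of 850 values of single genes under alternatives, 11 lost and 7 gained an adjusted p of at most 0.05, 2 moved by more than the spread between livers and 36 changed sign, 0 of these at an adjusted p of at most 0.05 in either fit. The 2 that moved were both *Efnb2* without chow HuRHep-/- replicate 1. The cause was not tested.

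Livers were not paired by replicate number in the main fits. Deviations of same-numbered livers from their group means correlated with r = -0.03, 0.11 and -0.0033 on chow and 0.088, 0.19 and 0.087 on HFCF. Correlations over all genes cannot exclude effects shared by replicate number in part of the genes. With the replicate block, 0 of the 10 genes were called by genotype on chow and 1 on HFCF, 1 by diet in WT and 3 in HuRHep-/- livers and 0 for the interaction, with *Lyve1* added. Over all genes the block gave 226 calls on chow (301 without it) and 764 on HFCF (517 without it).

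Counts over all genes moved by over 1.5 times with 1 library left out, except by diet in HuRHep-/- livers. With each left out they ran from 8 to 320 on chow, 28 to 850 on HFCF, 847 to 1784 by diet in WT livers, 2152 to 2861 in HuRHep-/- livers and 0 to 34 for the interaction. The lowest counts were without chow HuRHep-/- replicate 2 on chow, HFCF HuRHep-/- replicate 1 on HFCF and chow WT replicate 1 by diet in WT livers, and the 34 without HFCF WT replicate 3. The percentages of all genes given beside the 10 genes move with them. With 3 mice per group, and no more than 80 reads on *Efnb2*, small differences in the lower genes were not detectable.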
